A study of Mus musculus with 768 samples.

Results

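The genes described here are 10 genes of nitric oxide-cGMP signalling, chosen by name from the 24490 endogenous genes of the tables: *Gucy1a3*, *Gucy1a2* and *Gucy1b3*, *Npr1* and *Npr3*, *Prkg1* and *Mrvi1*, and *Pde5a*, *Pde3a* and *Pde1a*. All 10 symbols were found. They were measured by Smart-seq2, a full-length single-cell RNA-seq method, in cancer-associated fibroblasts (CAFs) of 2 mammary tumors, 1 tumor per 384-well plate and 1 sorted cell per well. The mice were 14-week-old FVB/N-Tg(MMTVPyVT)634Mul/J animals, in which the MMTV promoter drives the polyoma middle T oncogene in the mammary epithelium. The cells had been sorted as negative for EpCAM, CD45, CD31 and NG2, so epithelial, immune and endothelial cells and NG2-positive pericytes were meant to be left out. There was no control or treated group. Replicates are tumors (n = 2), and tumor and plate cannot be told apart.

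Nitric oxide made by neighbouring cells binds the haem of soluble guanylate cyclase, a heterodimer of an alpha and a beta subunit that needs both chains to make cGMP. In the contractile cells of vessel walls cGMP activates the kinase encoded by *Prkg1*, which lowers cytosolic calcium and relaxes the cell, and phosphodiesterases end the signal by hydrolysing the cyclic nucleotide. A separate family of receptors at the cell surface, to which *Npr1* belongs, makes cGMP in response to natriuretic peptides.

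Of 768 wells, 727 had at least 10000 non-ERCC reads and were used, 373 from tumor 1 and 354 from tumor 2. Following the vascular and matrix CAFs (vCAFs and mCAFs) of the study, wells were split by 1 gene each. A well was vascular when log2(RPKM + 1) of *Rgs5*, a regulator of G protein signalling that marks pericytes, was at least 5 and at least 2 above that of *Dcn*, which encodes the matrix proteoglycan decorin. It was matrix with the genes exchanged. This gave 507 vascular wells (265 in tumor 1 and 242 in tumor 2), 171 matrix wells (87 and 84) and 49 wells of neither class (21 and 28). The lowest level inside the gates was 5.01 for *Rgs5* and 5.85 for *Dcn*, and the lowest excess over the other gene was 2.13 and 2.05. In wells of neither class the excess reached 4.99 for *Rgs5* and 1.90 for *Dcn*. No gene described here took part in the split. When 10 other markers were used in place of *Rgs5* and *Dcn*, 650 wells kept their class and 0 moved between vascular and matrix. The median depth was 202729 and 190825 reads per vascular well in tumors 1 and 2, and 276708 and 232394.5 per matrix well. ERCC spike-ins took a median of 14.3% and 12.4% of the reads of a vascular well and 6.36% and 6.22% of those of a matrix well.

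The labels of the classes were checked against marker genes. Summed over 9 vascular markers, without *Rgs5*, the reads came to 12952.9 and 14277.1 CPM (counts per 1000000 reads of the summed wells) in the vascular wells of tumors 1 and 2 against 1400.79 and 1390.52 in the matrix wells. Summed over 9 matrix markers, without *Dcn*, they came to 224 and 378 against 12986.1 and 11236.1. *Cspg4*, the gene of the sorted-out antigen NG2, still had a read in 224 of 265 and 216 of 242 vascular wells. Endothelial genes were low: 7 markers summed to 10.9 and 13.4 CPM in vascular wells and to 40.9 and 23.9 in matrix wells. *Pecam1*, which encodes the sorted-out CD31, had no read in any vascular well. *Vwf* carried most of the vascular sums (10.7 and 11.3 CPM), with a read in 30 of 265 and 24 of 242 wells. *Tek* had 30 and 19.1 CPM in matrix wells, with a read in 18 of 87 and 6 of 84. The 7 smooth muscle genes, with *Acta2* and *Myh11* among them, summed to 6753.63 and 5083.93 CPM in vascular wells against 1519.58 and 2278 in matrix wells. All 7 had reads in the vascular wells of both tumors and in the matrix wells of tumor 1, and *Myocd* was at 0 in the matrix wells of tumor 2. *Acta2* carried most of these sums. *Acta2*, *Actg2*, *Cnn1*, *Myh11* and *Myocd* were higher in both vascular libraries than in either matrix library, as 47.7% of all genes tested were, while *Tagln* (802 and 522 against 375 and 532 CPM) and *Smtn* (82.3 and 103 against 97.8 and 86.9 CPM) overlapped between the classes. The part of these genes in the results was not tested. Of the other marker lists, immune genes summed to 2 to 3.11 CPM in vascular and 9.89 to 11.2 in matrix wells, and epithelial genes to 5.21 to 37.3 and 14.2 to 22.5. Developmental genes summed to 8.24 and 83.6 CPM in vascular against 255 and 267 in matrix wells. The adipocyte list summed to 378 and 384 CPM in vascular against 0.594 and 0.555 in matrix wells, which was *Fabp4* almost alone, with *Adipoq* and *Cfd* at 0 in both classes. The part of these lists in the results was not tested either. Cell cycle genes summed to 478 and 563 CPM in vascular wells against 102 and 41.8. Without the cycling wells 8 of the genes described here were called higher, beside 6.01% of all genes higher and 9.21% lower. The part of cycling cells in the results was not tested.

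The main alpha subunit and the beta subunit are encoded side by side. In GRCm38.p6 *Gucy1b3* (*Gucy1b1* in RefSeq) lies on the minus strand at chr3:82032004-82074711, and *Gucy1a3* (*Gucy1a1* in RefSeq), which encodes the alpha-1 subunit, lies upstream of it on the same strand at chr3:82092427-82145946, 17.7 kb apart. *Gucy1a2*, for the alpha-2 subunit, is on another chromosome, at chr9:3532349-3905791 on the plus strand. Since the chromosome 3 pair had the highest levels of the genes described here, their promoter windows are shown, as RefSeq gives them for this assembly. Each window runs from 250 bases before an annotated start to 50 bases after it. The windows are chr3:82074662-82074961 for *Gucy1b3* and, for the 2 annotated starts of *Gucy1a3*, chr3:82145601-82145900 and chr3:82145024-82145323. All are written 5′ to 3′ on the minus strand of the chromosome, with matches to the motifs named below in capitals.
Gucy1b3: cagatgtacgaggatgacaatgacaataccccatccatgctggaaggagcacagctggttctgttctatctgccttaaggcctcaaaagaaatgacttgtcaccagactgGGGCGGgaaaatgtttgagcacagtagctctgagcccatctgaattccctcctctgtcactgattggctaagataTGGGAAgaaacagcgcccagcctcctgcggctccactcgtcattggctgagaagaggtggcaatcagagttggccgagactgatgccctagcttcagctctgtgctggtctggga
Gucy1a3 start 1: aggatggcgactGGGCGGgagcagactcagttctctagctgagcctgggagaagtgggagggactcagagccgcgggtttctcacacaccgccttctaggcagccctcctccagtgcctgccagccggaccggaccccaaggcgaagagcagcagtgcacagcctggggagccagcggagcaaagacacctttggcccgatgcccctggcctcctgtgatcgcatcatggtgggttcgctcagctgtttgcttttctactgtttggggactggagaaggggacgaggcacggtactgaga
Gucy1a3 start 2: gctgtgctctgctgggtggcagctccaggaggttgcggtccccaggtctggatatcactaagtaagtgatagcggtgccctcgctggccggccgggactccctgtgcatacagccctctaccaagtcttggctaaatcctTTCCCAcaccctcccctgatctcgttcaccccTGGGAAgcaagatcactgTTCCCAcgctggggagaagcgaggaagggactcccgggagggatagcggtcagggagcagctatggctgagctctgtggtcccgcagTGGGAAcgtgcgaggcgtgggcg

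Motifs were searched on both strands: the CArG box bound by serum response factor, TGANTCA (AP-1), TGGGAA (the core read by the Notch effector RBPJ), GGAATG (TEAD factors), GGGCGG (the GC box) and TATAAA. The *Gucy1b3* window held GGGCGG at 140 to 135 bases and TGGGAA at 65 to 60 bases before its start. The first window of *Gucy1a3* held GGGCGG at 238 to 233 bases before the start, and the second held TGGGAA or its complement at 4 places. Over the 15 windows of the 9 genes that had a window, TGGGAA was present in 8 and GGGCGG in 8, where 25.6% and 35.7% of all 32851 promoter windows hold them. GGAATG was in 3 windows (14.7% of all windows hold it) and TATAAA in 2 (13.6%). The CArG box and TGANTCA were in 0 of the 15 windows, and 1.63% and 7.81% of all windows hold them. These matches describe the letters only.

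Transcripts of the soluble cyclase were far higher in vascular than in matrix wells. In mean RPKM, a level per length of gene model, *Gucy1a3* stood at 251 in the vascular wells of tumor 1 and 246 in those of tumor 2, against 15.4 and 14.6 in the matrix wells. *Gucy1b3* stood at 161 and 164 against 11.1 and 8.21, and *Gucy1a2*, at a far lower level, at 12.8 and 13.5 against 1.14 and 1.47. The vascular levels of the 3 subunits were close between the tumors. For the test, the reads of a class were summed per tumor into 4 libraries, of 55104252 and 48308501 reads (vascular) and 23553206 and 19823531 reads (matrix), and compared over 11592 genes by the quasi-likelihood test of edgeR, with p-values adjusted by Benjamini-Hochberg. *Gucy1a3* had 1348.15 and 1283.63 CPM in the vascular libraries and 68.8 and 62.3 in the matrix libraries, a log2 fold change of 4.05 ± 0.18 (SE, adjusted p = 0.00026). *Gucy1b3* had 602 and 606 against 40.5 and 34.1 CPM, a log2 fold change of 3.73 ± 0.18 (adjusted p = 0.00034). *Gucy1a2* had 211 and 208 against 19.5 and 20 CPM, a log2 fold change of 3.13 ± 0.17 (adjusted p = 0.00047). Fewer cells that express a gene and less RNA per cell are not separated by these sums, and are taken up per well below.

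Of the 9 genes that passed the filter on low values (a mean RPKM of at least 1), 8 were called higher in vascular wells at an adjusted p of 0.05, where 6.76% of all genes tested were called higher and 9.83% lower. None of the 9 was called lower. Their median log2 fold change was 3.13, beside 0.04 over all genes tested. *Npr3* was the gene that did not pass the filter, and *Npr1* passed it through its vascular wells, with a mean RPKM of 1.29 and 1.12 there against 0.87 and 0.486 in matrix wells. The count and the median over the 9 genes are therefore descriptions only. At the adjusted p of 0.001 used in the study, 5 of the 9 were called higher, where 1.85% of all genes were called, 0.535% higher and 1.31% lower. With the tumor as a block in the model, 8 were called at 0.05, beside 7% of all genes higher and 10.4% lower. At 0.001 the block left 2, *Gucy1a3* (adjusted p = 0.00048) and *Gucy1b3* (adjusted p = 0.00062), beside 0.328% higher and 0.914% lower.

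**Figure D1:**
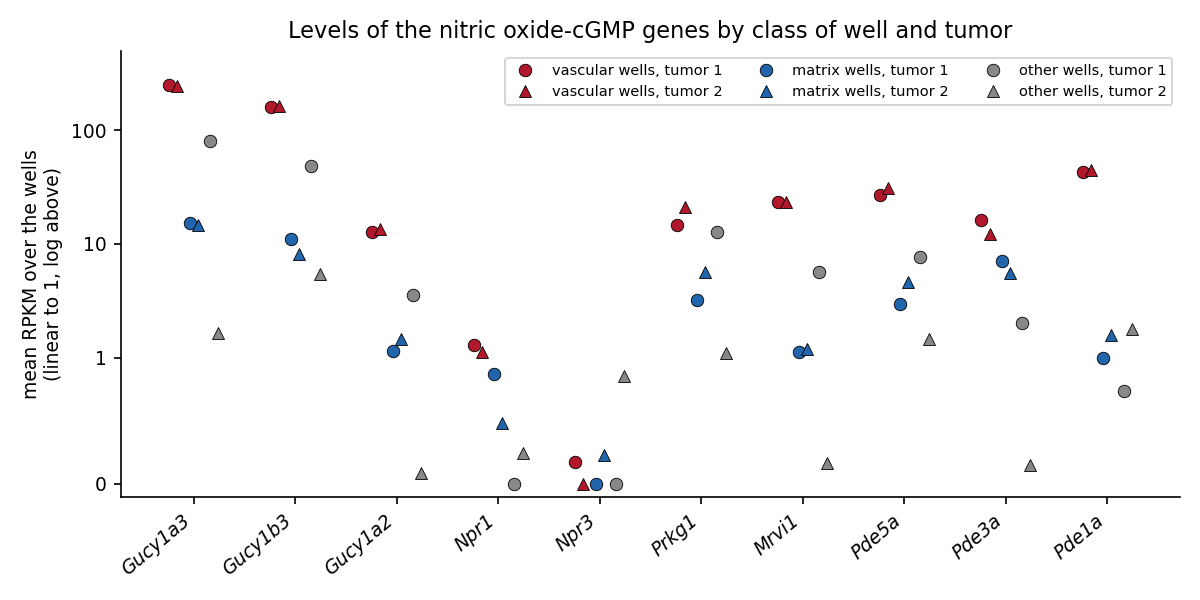
Mean RPKM of the 10 genes (y axis, linear to 1 and logarithmic above) over the wells of each class and tumor, with circles for tumor 1 and triangles for tumor 2. The cyclase genes *Gucy1a3* and *Gucy1b3* reach 246 to 251 and 161 to 164 in vascular wells, *Pde3a* is the called gene whose classes lie closest together, and *Npr3* is at or near 0 everywhere.

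*Npr1* and *Npr3*, which bind natriuretic peptides, were low in both classes. *Npr1* was not called and *Npr3* was not tested. *Npr1* (chr3:90450591-90465928), the guanylate cyclase that binds atrial and brain natriuretic peptides, had 6.37 and 5.36 CPM in the vascular libraries and 3.06 and 1.61 in the matrix libraries. At these low levels the log2 fold change of 1.04 ± 0.62 (SE) did not pass the test (adjusted p = 0.34, edgeR). A read was seen in 34 of 265 and 35 of 242 vascular wells and in 10 of 87 and 7 of 84 matrix wells. With each well thinned at random to 50000 reads, to set aside differences in depth, the shares of *Npr1* were 10.9% and 13.2% against 6.1% and 5%, with exact intervals that overlapped between the classes. *Npr3* (chr15:11839896-11907837), the clearance receptor that removes the peptides without making cGMP, was read in 5 of 265 vascular wells of tumor 1 and in 0 of 242 of tumor 2, where the limit that a count of 0 allows was 1.24%. Among matrix wells it was read in 0 of 87 in tumor 1 (limit 3.45%) and in 3 of 84 in tumor 2. The classes of *Npr3* thus could not be ordered at this depth, and in the other wells it had a read in 0 of 21 and 3 of 28.

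The kinase and its partner were both higher in vascular wells, but to different extents. *Prkg1* (chr19:30564487-31765268), the cGMP-dependent kinase type I, had a mean RPKM of 14.6 and 21 in the vascular wells of tumors 1 and 2 and of 3.2 and 5.62 in the matrix wells. Its libraries held 111 and 156 against 23.6 and 43.4 CPM, a log2 fold change of 1.72 ± 0.34 (SE, adjusted p = 0.025, edgeR). *Mrvi1* (chr7:110868257-110982909) encodes the kinase's substrate at the inositol trisphosphate receptor of the calcium store. It had a mean RPKM of 23.6 and 23.5 against 1.11 and 1.2. Its log2 fold change was 3.97 ± 0.27 (adjusted p = 0.00081), from 164 and 142 against 6.58 and 9.53 CPM. With ERCC reads as the library size, a scaling that moved the median log2 fold change of all genes to -0.63, the call of *Prkg1* was lost (1.06, adjusted p = 0.069), at 1.69 above that median.

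The 3 phosphodiesterases spanned the widest range of differences. *Pde1a* (chr2:79834453-80196522), which is stimulated by calcium and calmodulin, had the largest log2 fold change of the 9 genes tested, 4.81 ± 0.35 (SE, adjusted p = 0.00094, edgeR), from 149 and 169 CPM in the vascular libraries and 3.31 and 6.05 in the matrix libraries. *Pde5a* (chr3:122729158-122859374), the cGMP-specific enzyme that sildenafil inhibits, had 198 and 250 against 22.5 and 37.1 CPM, a log2 fold change of 2.63 ± 0.29 (adjusted p = 0.0035). *Pde3a* (chr6:141249269-141506862), a cAMP-hydrolysing enzyme that cGMP inhibits, had 76.7 and 59 against 24.5 and 27.4, a log2 fold change of 1.11 ± 0.24 (adjusted p = 0.035). The call of *Pde3a* rested on the settings: it was lost with the looser gate (1.05, adjusted p = 0.055), without the wells that had a read of *Epcam*, *Pecam1* or *Ptprc* (1.02, adjusted p = 0.063), with every well scaled to the same total (0.89, adjusted p = 0.13) and with ERCC reads as the library size (0.44, adjusted p = 0.2, at 1.06 above the median of all genes).

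**Figure D2:**
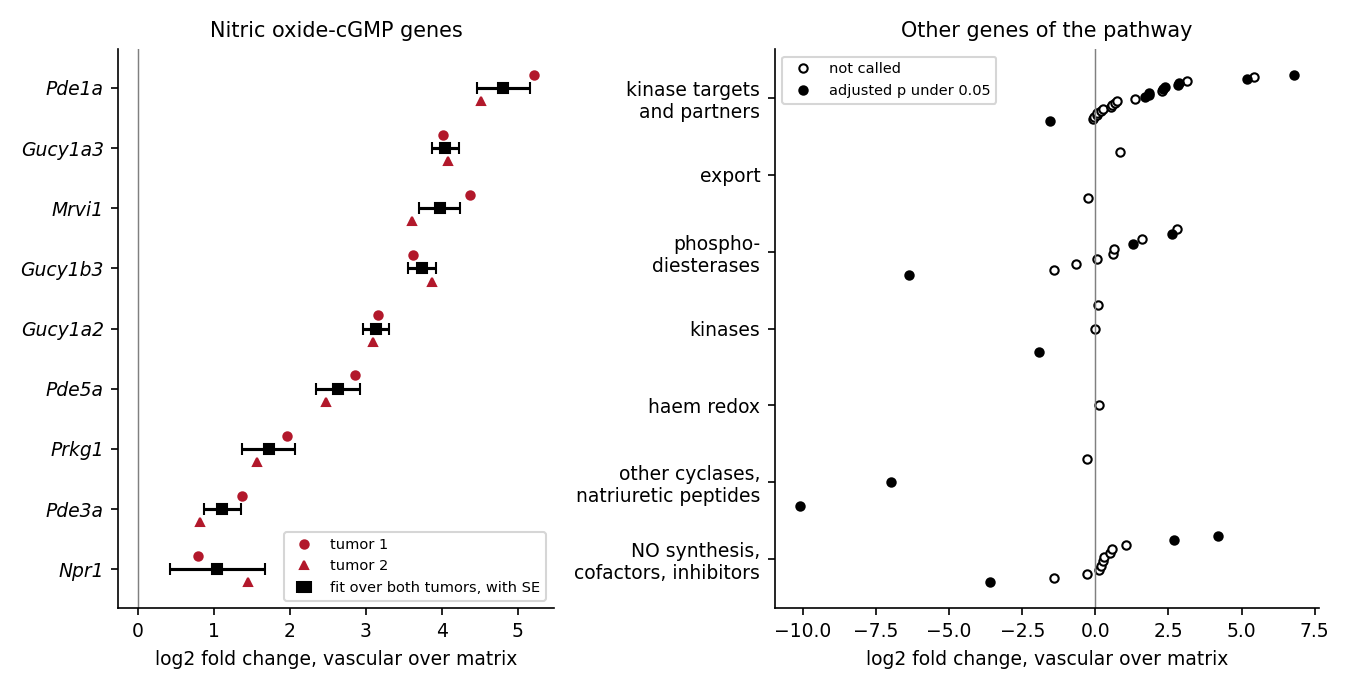
Log2 fold changes of vascular over matrix wells (x axis). On the left, squares with bars give the edgeR estimate and its SE for the 9 genes tested, and circles and triangles the values of tumors 1 and 2. On the right, each point is another gene of the pathway by group, filled where the adjusted p was under 0.05, with 13 filled points above 0 and 6 below.

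In vascular wells the order of levels in mean RPKM over the tumors was *Gucy1a3* (248 ± 3.54, SD, n = 2 tumors), *Gucy1b3* (162 ± 2.12), *Pde1a* (44.0 ± 1.20), *Pde5a* (29.1 ± 2.97), *Mrvi1* (23.6 ± 0.0707), *Prkg1* (17.8 ± 4.53), *Pde3a* (14.3 ± 2.83), *Gucy1a2* (13.2 ± 0.495), *Npr1* (1.21 ± 0.12) and *Npr3* (0.0865 ± 0.122). *Prkg1* and *Pde3a* overlapped between the tumors, as did *Pde3a* and *Gucy1a2*. The other neighbours in this order did not overlap. In matrix wells *Pde3a* moved up to place 3 (6.36 ± 1.07 RPKM), after *Gucy1a3* (15.0 ± 0.566) and *Gucy1b3* (9.66 ± 2.04). *Prkg1* (4.41 ± 1.71) overlapped there with *Pde3a* and with *Pde5a* (3.77 ± 1.17), and *Gucy1a2*, *Pde1a* and *Mrvi1* overlapped among themselves at 1.16 to 1.30. The matrix level of *Gucy1a3* was 6.12% and 5.91% of its vascular level in tumors 1 and 2, and that of *Pde3a* 43.7% and 45.6%. Among the 9 vascular markers other than *Rgs5* the same share ran from 0.279% and 0.224% for *Higd1b* through 6.66% and 5.80% for *Notch3* to 20.7% and 30.2% for *Cspg4* and 38.1% and 33.1% for *Pdgfrb*, so that markers lay both under and above *Gucy1a3*.

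Per well, *Gucy1a3* and *Gucy1b3*, each taken alone, were read in nearly all vascular wells. *Gucy1a3* had a read in 98.1% of the vascular wells of tumor 1 (exact binomial 95% bounds 95.7 and 99.4) and 95% in tumor 2 (91.5 to 97.4), against 43.7% (33.1 to 54.7) and 46.4% (35.5 to 57.6) of matrix wells. *Gucy1b3* had a read in 95.1% and 93.4% of vascular wells against 43.7% and 39.3% of matrix wells. Because matrix wells were deeper, every well was also thinned to 50000 reads, which left out 9 and 15 vascular and 5 and 4 matrix wells. At this depth the shares for *Gucy1a3* were 97.3% and 93.8% against 28.0% and 22.5%, and for *Gucy1b3* 94.9% and 94.3% against 28.0% and 21.2%. Thinned further to 10000 reads, *Gucy1a3* was read in 94.7% and 90.5% of vascular and 19.5% and 17.9% of matrix wells, and *Gucy1b3* in 86.8% and 81.8% against 12.6% and 16.7%. The shares thus depended on depth in both classes, and the vascular ones stayed above the matrix ones at each depth. Reads in matrix wells were few in most and many in some. The median RPKM of *Gucy1a3* was 0 in the matrix wells of both tumors, 16 of 87 and 10 of 84 wells had at least 10 RPKM, and the 10 highest wells held 86.7% and 95.4% of the summed RPKM. In vascular wells the median was 231 and 204, and 251 of 265 and 219 of 242 wells had at least 10 RPKM.

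The other genes were read in a part of the vascular wells. Among vascular wells of tumors 1 and 2, the share with a read was 71.3% and 81.8% for *Pde5a*, 73.6% and 67.4% for *Gucy1a2*, 67.5% and 61.6% for *Mrvi1*, 57.7% and 59.9% for *Prkg1*, 58.9% and 51.7% for *Pde3a*, and 53.6% and 63.6% for *Pde1a*. The matrix shares were lowest for *Pde1a*, at 5.75% and 10.7%, and *Mrvi1*, at 14.9% and 13.1%. They were 25.3% and 23.8% for *Gucy1a2*, 33.3% and 29.8% for *Prkg1*, 40.2% and 39.3% for *Pde5a* and 41.4% and 40.5% for *Pde3a*. For these 6 genes the vascular share was above the matrix share in both tumors, and it stayed above after thinning, where *Pde3a* was read in 55.5% and 49.8% of vascular and 31.7% and 33.8% of matrix wells, and *Pde1a* in 51.2% and 60.8% against 3.66% and 8.75%. *Pde1a* was uneven among vascular wells: its mean RPKM of 43.1 and 44.8 stood beside a median of 3.49 and 11.3, and its upper quartile was 63.7 and 75.7. A share in vascular wells under that of the cyclase can come from the depth of a single well as well as from cells without the transcript, and these cannot be told apart.

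**Figure D3:**
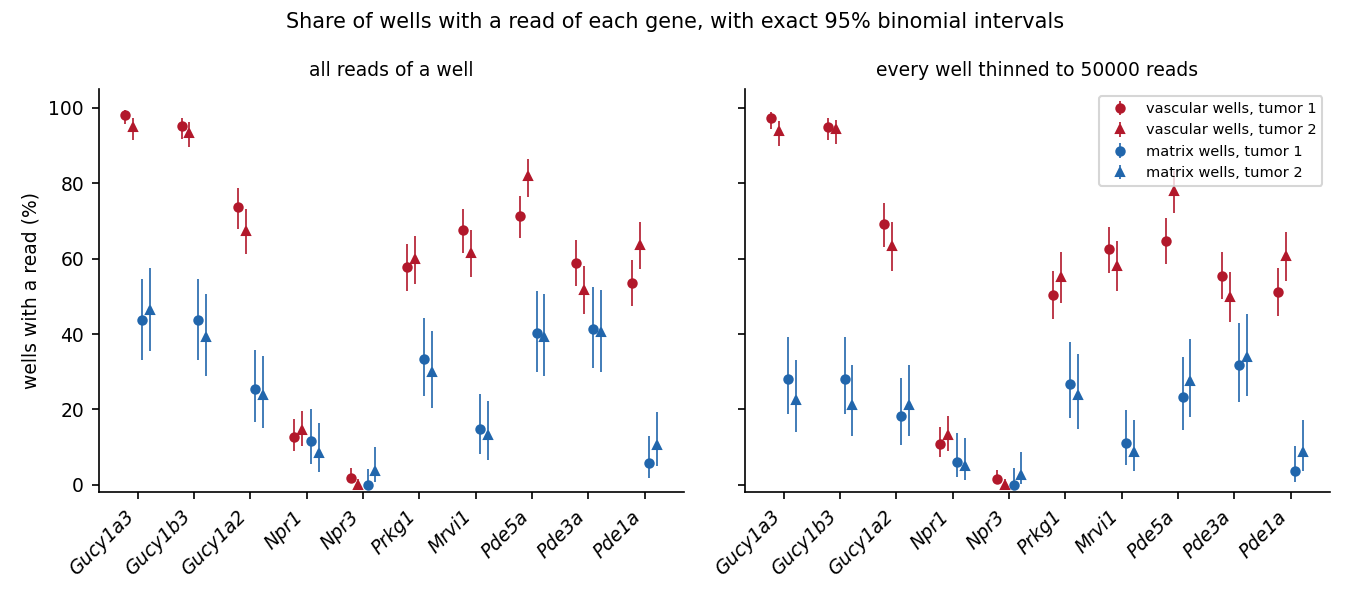
Share of wells with at least 1 read of each gene (y axis, percent) in vascular and matrix wells of each tumor, with all reads on the left and after thinning to 50000 reads on the right. Bars are exact 95% binomial intervals. *Gucy1a3* and *Gucy1b3*, each taken alone, stand at 93.4% to 98.1% of vascular wells with all reads, and *Npr1* and *Npr3* have the lowest shares in vascular wells.

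Transcripts of both chains of the cyclase were read in the same well in most vascular wells. An alpha subunit (*Gucy1a3* or *Gucy1a2*) together with *Gucy1b3* was seen in 251 of 265 vascular wells of tumor 1 (94.7%, interval 91.3 to 97.1) and 217 of 242 of tumor 2 (89.7%, 85.1 to 93.2). An alpha subunit alone was seen in 10 and 13 wells, *Gucy1b3* alone in 1 and 9, and none of the 3 in 3 and 3. In matrix wells the pair was seen in 21 of 87 (24.1%, 15.6 to 34.5) and 22 of 84 wells (26.2%, 17.2 to 36.9), an alpha subunit alone in 27 and 26, *Gucy1b3* alone in 17 and 11, and none in 22 and 25. In matrix wells, a single kind of chain was thus seen more often than both. After thinning to 50000 reads the pair was seen in 93.8% and 90.7% of vascular wells and in 13.4% and 16.2% of matrix wells. With all reads, *Gucy1b3* was read in 44.7% and 43.6% of matrix wells with *Gucy1a3* and in 42.9% and 35.6% of those without. Thinned, these were 34.8% and 50% against 25.4% and 12.9%. In vascular wells *Gucy1b3* was read in 96.2% and 94.3% of those with *Gucy1a3* and in 2 of 5 and 9 of 12 without. The share with the pair rises with the share of each single gene, and pairing beyond that was not tested.

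**Figure D4:**
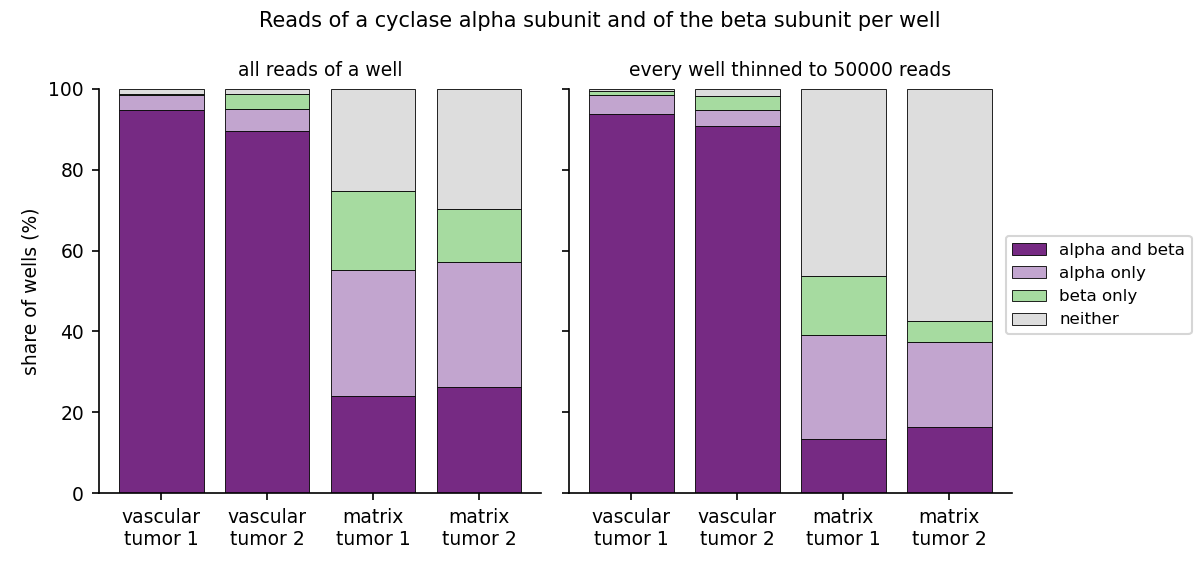
Share of wells (y axis, percent) with reads of an alpha subunit and of the beta subunit, of 1 kind alone or of neither, by class and tumor, with all reads on the left and after thinning to 50000 reads on the right. The pair fills 94.7% and 89.7% of the vascular bars and 24.1% and 26.2% of the matrix bars with all reads.

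*Gucy1a3* was among the alpha transcripts read in all but 1 of the vascular wells with the pair. Where both alpha genes were read, reads do not show which chain joins the beta subunit. *Gucy1a2* without *Gucy1a3* was seen in 1 of 265 and 0 of 242 vascular wells, and in 10 of 87 and 9 of 84 matrix wells. All 3 subunits were seen in 188 vascular wells of tumor 1 (70.9%) and 156 of tumor 2 (64.5%), and in 7 and 3 matrix wells. *Gucy1a2* made up 4.86% and 5.21% of the summed alpha RPKM in vascular wells and 6.91% and 9.16% in matrix wells. In mean RPKM *Gucy1a3* stood 1.56 and 1.5 times above *Gucy1b3* in vascular wells. Within the vascular wells that had both, the median log2 ratio of *Gucy1a3* to *Gucy1b3* was 0.60 in tumor 1 (250 wells, quartiles -0.21 and 1.5) and 0.44 in tumor 2 (217 wells, quartiles -0.57 and 1.48), with *Gucy1a3* the higher in 177 and 135 wells. At least 10 RPKM of both was seen in 234 of 265 and 203 of 242 vascular wells, and in 5 of 87 and 6 of 84 matrix wells.

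The levels of the cyclase pair moved together only weakly from cell to cell. Across vascular wells the Spearman correlation of log2(RPKM + 1) between *Gucy1a3* and *Gucy1b3* was 0.34 in tumor 1 (265 wells) and 0.33 in tumor 2 (242 wells), the highest of the 36 pairs among the 9 genes other than *Npr3*. The other 35 pairs ranged from -0.08 to 0.28. The wells of a tumor share a plate, and reads per well correlated with *Gucy1a3* at 0.01 and 0.06 and with *Gucy1b3* at 0.06 and 0.04. Of the other pairs, *Pde3a* with *Pde1a* gave 0.21 and 0.26, while *Prkg1* with *Gucy1b3* gave 0.04 and 0.16 and *Prkg1* with *Mrvi1* 0.05 and 0.10. Across matrix wells *Gucy1a3* and *Gucy1b3* gave 0.14 (87 wells) and 0.23 (84 wells).

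**Figure D5:**
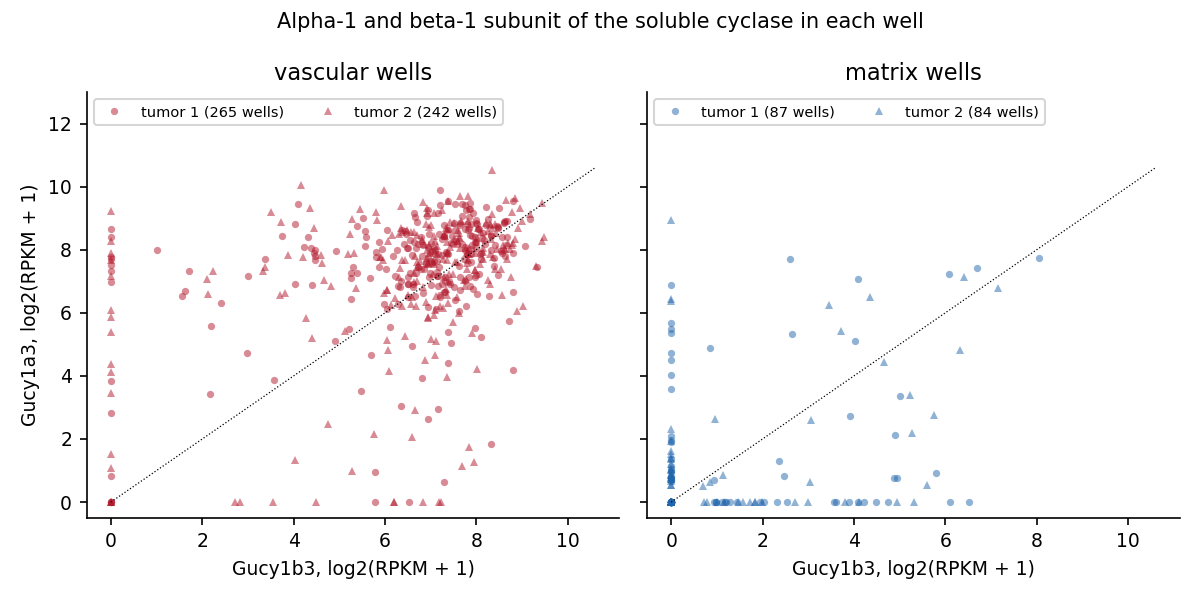
Log2(RPKM + 1) of *Gucy1a3* (y axis) against *Gucy1b3* (x axis), 1 point per well, with circles for tumor 1 and triangles for tumor 2 and a dotted line where both are equal. Most vascular wells form 1 cloud on both sides of the line at high levels of both genes, with *Gucy1a3* the higher in 177 of 250 and 135 of 217 wells that had both. Matrix wells lie mostly along the axes, with a read of 1 gene alone or of neither.

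Over the 7080 genes read in at least 20% of the vascular wells of both tumors, likeness was ranked by the lower of the correlations of the 2 tumors. The genes most like *Gucy1b3* were *Cox4i2* (0.41 and 0.39), *Rgs5* (0.39 and 0.41), *Gucy1a3*, *Vtn* (0.31 and 0.31) and *Ano1* (0.29 and 0.33). Those most like *Gucy1a3* were *Rgs5* (0.40 and 0.49), *Ptp4a3* (0.37 and 0.41), *Gucy1b3*, *Gja4* (0.34 and 0.32) and *Abcc9* (0.32 and 0.37). Each chain of the pair thus stood at place 3 in the other's order. *Rgs5* is the gene that defined these wells. *Gucy1a2* stood at place 137 for *Gucy1b3* and 567 for *Gucy1a3*, and *Prkg1* at 1344 and 913.

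Reads of the later steps were seen alongside the pair in part of the vascular wells. The pair with *Prkg1* was seen in 148 of 265 (55.8%) and 138 of 242 wells (57.0%), and with *Prkg1* and *Mrvi1* in 108 (40.8%) and 95 (39.3%). The pair with at least 1 of the 3 phosphodiesterases was seen in 231 (87.2%) and 212 wells (87.6%). In matrix wells the pair was seen with *Prkg1* in 6 and 10 wells and with *Prkg1* and *Mrvi1* in 0 and 1. There the pair with at least 1 phosphodiesterase was seen in 17 of 87 (19.5%) and 14 of 84 wells (16.7%), most of the 21 and 22 matrix wells that had the pair. After thinning to 50000 reads it was seen in 9.76% and 8.75% of matrix wells and in 84.4% and 88.5% of vascular wells, and the pair with *Prkg1* in 3.66% and 7.5% against 48% and 51.5%. Among vascular wells, all 3 phosphodiesterases were seen in 67 (25.3%) and 78 wells (32.2%), 2 of them in 111 and 89, 1 in 64 and 65, and none in 23 and 10. *Pde1a* was read in 60.3% and 74.4% of the vascular wells with *Pde3a* and in 44.0% and 52.1% of those without. By contrast, it was read in 55.0% and 63.1% of those with *Pde5a* and in 50.0% and 65.9% of those without. After thinning to 50000 reads the shares of *Pde1a* were 57.0% and 69.0% with *Pde3a* against 43.9% and 52.6% without. The median vascular well had a read of 6 of the 10 genes in either tumor, and the median matrix well of 3 and 2, which after thinning were 6 in either tumor and 1 and 1.5.

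Among the vascular wells, 26 in each tumor had reads of at least 4 of 8 cell cycle markers. The mean log2(RPKM + 1) of *Gucy1a3* was 7.38 and 6.83 in these cycling wells against 7.36 and 7.0 in the others, and that of *Gucy1b3* was 6.62 and 6.60 against 6.57 and 6.45. *Prkg1* stood at 2.09 and 2.09 against 2.28 and 2.62. *Pde5a* was lower in the cycling wells of tumor 1 (2.68 against 3.19) and higher in those of tumor 2 (4.13 against 3.73). *Npr1* was read in 19.2% and 30.8% of cycling wells and 12.1% and 12.5% of the others, whose median depth was also lower, at 196681 and 186420.5 reads against 268507.5 and 213309. With 2 tumors these differences were not tested. In the 49 wells of neither class *Gucy1a3* stood at a mean RPKM of 80.4 in the 21 wells of tumor 1 and 1.66 in the 28 of tumor 2, and *Gucy1b3* at 48.2 and 5.41. The 10 highest wells held 99.4% and 100% of the summed *Gucy1a3* RPKM. Markers of these wells differed too: *Rgs5* had 1419.25 and 123 CPM, the 9 other vascular markers 2596.05 and 824, and *Dcn* 928 and 34.7. Developmental genes summed to 10188.3 and 9773.73 CPM. The part of this mix of cells was not tested.

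Of 77 other genes of the pathway, 55 passed the filter, of which 13 were higher in vascular wells, 6 were lower and 36 were not called, where 6.76% of all genes tested were higher and 9.83% lower. Their median log2 fold change was 0.53 beside 0.04 over all genes tested. The filter takes a mean over both classes, so genes near 0 in 1 class passed it through the class where they were high. The counts and the median of this list are therefore descriptions only. The targets and partners of the kinase held most of the higher calls, with 9 higher, 1 lower and 14 not called of 24 tested. *Ppp1r14a*, which encodes an inhibitor of myosin phosphatase, had 35.2 and 34 CPM in the vascular libraries against 0.34 and 0.151 (log2 fold change 6.81 ± 0.52, SE, adjusted p = 0.0011, edgeR). With 8 and 3 reads in the matrix libraries, it passed the filter through the vascular wells. The cation channel gene *Trpc6* had 515 and 413 against 15.1 and 5.9 (5.17 ± 0.51, adjusted p = 0.0025). *Mylk*, myosin light chain kinase, had 1381.62 and 1321.03 against 144 and 166 (2.85 ± 0.17, adjusted p = 0.00059), and *Kcnmb1*, a subunit of the large-conductance potassium channel, 111 and 89.3 against 14.4 and 8.98 (2.82 ± 0.32, adjusted p = 0.0042). *Kcnma1*, another gene of this channel, had 1.13 and 0 against 5.01 and 15.6 CPM and did not pass the filter. The lower gene was *Rgs2*, a regulator of G protein signalling that the kinase binds, with 29 and 21.4 against 53.6 and 68 (-1.54 ± 0.27, adjusted p = 0.017).

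The nitric oxide synthase genes had few or no reads. *Nos2* had no read in any of the 4 libraries, and *Nos1* and *Nos3* had 3 and 11 and 7 and 13 reads in the vascular libraries and 6 and 0 and 15 and 0 in the matrix libraries. None of the 3 passed the filter. Of 12 tested genes for the synthesis of nitric oxide, its cofactors and inhibitors, 2 were higher, 1 was lower and 9 were not called. Over all genes tested, 6.76% were higher and 9.83% lower, and a count in so small a group is a description only. *Nostrin*, whose product binds the endothelial synthase, had 104 and 96.7 CPM against 4.46 and 4.59 (log2 fold change 4.19 ± 0.23, SE, adjusted p = 0.00048, edgeR). *Ddah1*, which breaks down an endogenous inhibitor of the synthases, was lower, at 17.6 and 27 against 217 and 230 (-3.61 ± 0.26, adjusted p = 0.00091).

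Of the 3 other genes tested for receptor cyclases and natriuretic peptides, 2 were lower in vascular wells, where 9.83% of all genes tested were lower. *Npr2*, the receptor cyclase for C-type natriuretic peptide, had 0.0544 and 0.932 CPM in the vascular libraries against 50.9 and 49.4 in the matrix libraries (log2 fold change -6.98 ± 1.10, SE, adjusted p = 0.012, edgeR). *Mme*, neprilysin, which degrades these peptides, had 0.2 and 0.0621 against 151 and 100 (-10.11 ± 0.56, adjusted p = 0.00047). The vascular libraries held 3 and 45 reads of *Npr2* and 11 and 3 of *Mme*. Both genes thus passed the filter through the matrix wells, and their fold changes rest on vascular counts near 0. *Furin*, a protease that processes the peptides' precursors, was not called (-0.28 ± 0.29, adjusted p = 0.58). *Prkg2*, the type II kinase, was lower in vascular wells, at 15.6 and 19 against 44.4 and 64 CPM (-1.92 ± 0.28, adjusted p = 0.0094), opposite in sign to *Prkg1*. Of 10 other phosphodiesterases tested, 2 were higher, 1 was lower and 7 were not called, where 6.76% of all genes tested were higher and 9.83% lower. The higher ones were *Pde2a* and *Pde8a*, the latter with a call that the tumor as a block ended (adjusted p = 0.057, edgeR). *Pde4d*, which hydrolyses cAMP, was lower, at 1.03 and 0.766 against 52.1 and 72.2 CPM (-6.38 ± 0.37, adjusted p = 0.00055). It had 57 and 37 reads in the vascular libraries and passed the filter through the matrix wells.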

How the data were processed

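Fibroblasts of 2 tumors were measured by Smart-seq2 in 768 wells, each of which is a sample mapped to its tumor by the plate in its title. The authors used STAR for the alignment (mm10) and RefSeq genes for counting, and their deposited counts are whole, unnormalized reads per gene. RPKM, also deposited, divides these reads by the length of the gene model and the reads mapped in the well. The kit does not mark strand, so reads of *Npr1*, *Npr3*, *Mrvi1*, *Pde5a* and *Pde3a* cannot be told apart from those of annotated genes that share 55 to 741 exonic bases with them. The genes, lists and classes were chosen with earlier results of these data known.

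Wells with at least 10000 non-ERCC reads were kept, and their depth ran from 10281 to 1190516 reads. 0 columns were left unused. Counts were summed per tumor and class and tested with edgeR 4.0.16 (TMM, glmQLFit, glmQLFTest, no covariate, mean RPKM over the vascular and matrix wells at least 1, Benjamini-Hochberg adjusted p of 0.05, two-sided). SE is the log2 fold change divided by the root of F. CPM are relative to the library total, without the TMM factor. Both classes of a tumor share an animal, which pairs the libraries: their deviations from the class means correlated at 0.176 over 11592 genes, and the tumor as a block is an alternative. Both tumors belong to 1 group, and p-values measure the spread between 2 tumors. The script was tested on simulated data. Shares carry exact 95% binomial intervals (scipy 1.17.1), and a 0 is given with the limit of 3 counts. Smart-seq2 has no molecular identifiers, so both cover counting error only. Named genes were the 10 genes and, of a list of 77 pathway genes, the called genes with the largest change, up to 6 in each direction, *Furin*, *Pde2a*, *Pde8a*, *Kcnma1*, *Hspb6*, *Pln*, *Lmod1* and the *Nos* genes being named after their values were seen. A gene that this rule names is not reported here. Alternatives were the block, DESeq2 1.42.0, other scalings, filters, gates and depths, and leaving out a tumor. Promoter windows are from RefSeq for GRCm38.p6. Doublets were not called.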

Additional observations from a re-analysis of the deposited data

Results flagged for a closer look

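With 2 tumors no test for an outlying tumor was possible. *Npr3* differed in direction between the tumors: the share of wells with a read, vascular minus matrix, was 1.89 percentage points in tumor 1 and -3.57 in tumor 2, a difference that was not tested and rests on 5 and 3 wells. The 41 wells with fewer than 10000 reads entered no comparison. Of these, 15 had a read of *Gucy1a3* (21 reads in all), 8 had a read of *Gucy1b3* (10 reads) and 6 had a read of *Gucy1a2* (10 reads), each above the limit of 3 that a count of 0 allows.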

How the results depend on the processing

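Of the 8 genes called, 6 stayed called and higher under all 14 alternatives with a test, and no fold change of the 9 genes tested changed sign. The exceptions were *Prkg1* with ERCC reads as the library size (1.06, adjusted p = 0.069) and *Pde3a* with ERCC reads (0.44, adjusted p = 0.2), every well scaled to the same total (0.89, adjusted p = 0.13), the looser gate (1.05, adjusted p = 0.055) and without wells with *Epcam*, *Pecam1* or *Ptprc* reads (1.02, adjusted p = 0.063). The tumor as a block changed no call of the 9 genes at 0.05 (for *Gucy1a3* adjusted p = 0.00048). Among the pathway genes it ended the call of *Pde8a* (adjusted p = 0.057) and added *Hspb6*, *Pln* and *Lmod1*, and it changed no other. Over all genes 1923 were called, against 2927 with DESeq2, 4005 with ERCC reads and 214 at an adjusted p of 0.001. The share of calls that were higher was 40.8%, against 13.2% with ERCC reads and 59.2% with the library total only, which moved the median log2 fold change of all genes to 0.32. Of the 55 pathway genes tested, 20 were higher with DESeq2, where 11.1% of all genes were higher, and 14 lower with ERCC reads, where 30% of all genes were lower. The share of vascular wells with the cyclase pair (mean 92.2%) was 80.9% after thinning to 10000 reads, 86.3% with at least 5 reads of each chain and 87.1% with the looser gate. That of matrix wells (mean 25.2%) was 14.8% and 8.25% after thinning to 50000 and 10000 reads, 17.5% at an RPKM of at least 1 and 12.3% with at least 5 reads. Leaving out either tumor gives values without a test, since a single tumor has no spread.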
